A study of Drosophila melanogaster with 4 samples.

Results

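The regions described here are the enriched regions for Su(var)3-9 in the interior of chromosome arm 3L of Drosophila melanogaster, the stretch between 1000001 and 22543557 on FlyBase release 5. This stretch leaves out the outermost 1 Mb at the telomere side and the innermost 2 Mb at the centromere side. A region was a member when the midpoint of its first and last base fell within these bounds and it was not listed as depleted. By this rule 3328 of the 21932 enriched regions in the combined list were members, and the same rule gave 810 of 6699 regions for ChIP replicate 1 and 1361 of 10048 for ChIP replicate 2. Chromatin immunoprecipitation and sequencing (ChIP-seq) was done on wild-type Oregon-R larvae of the third instar, with 2 ChIP libraries and 2 input libraries. All 4 share this strain, genotype and stage. The ChIP libraries were made with Q2598, an affinity-purified rabbit antibody raised against amino acids 320 to 419 of Su(var)3-9. Only lists of the ChIP libraries and of the replicate set were analysed here, so no region was set against an input list of its own. Position alone defines the interior as euchromatic, and nothing else in the lists checks that name.

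Su(var)3-9 is a histone methyltransferase that places methyl groups on lysine 9 of histone H3, the mark bound by the chromodomain of HP1a. The gene was found in screens for mutations that suppress position-effect variegation, the silencing of a gene placed next to heterochromatin. The protein is best known from pericentric heterochromatin, the compact and repeat-rich chromatin around the centromeres. The interior of a large arm is mostly gene-bearing euchromatin, where the protein has also been mapped, and the lists ask where along such an arm enrichment was called. The chromatin came from homogenized larval tissue, so a region called here is an average over cell types.

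Each region carries a score given by the authors, whose scale the files do not name. Many regions of a list had exactly the same score, and this allowed the scale to be checked. In the combined list 114 distinct scores were each shared by at least 10 regions. Read as powers of 2 relative to the most frequent score, 107 of them (93.9%) fell on ratios of whole numbers with a denominator up to 200, to within 1e-07. Read as powers of e this held for 1 of them and as powers of 10 for 4. In the replicate 1 list it held for all 18 recurring scores under base 2, and in the replicate 2 list for all 34. The most frequent score was among those tested and gives a ratio of 1 under any base. Each of these counts thus includes 1 automatic hit. The scores therefore behave as log2 ratios apart from a constant for each list, and what they are a ratio to is not named. The median member score was 0.375 in the combined list, 0.590 in replicate 1 and 0.516 in replicate 2. Because the constant of each list is unknown, scores were compared within a list and their levels were not compared between lists.

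Members were short and their scores lay close together. Their median length in the combined list was 1476 bp (quartiles 1188 and 1973 bp), and they covered 5.82 Mb, or 27.0% of the interior. The shortest were 1001 bp, a length that 43 of them had exactly, and the longest was 10547 bp. Only 37 of the 3328 exceeded 5 kb. The middle 50% of scores ran from 0.329 to 0.414, and 73.3% of members scored between 0.3 and 0.45. Scores above 0.5 were found in 153 members (4.60%) and scores above 1 in 9. Length and score were hardly related in the combined list (Spearman's rho 0.10 across 3328 members), and more so in replicate 1 (0.41 across 810) and replicate 2 (0.53 across 1361). Regions of 1 list share a library and lie next to one another, so these are descriptions.

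Of the members, 64.4% shared their exact score with at least 1 other region of the combined list, and so did 61.7% of members in replicate 1 and 63.4% in replicate 2 within their own lists. The 3328 members held 2732 distinct scores.

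The rule cuts the arm at fixed distances, and regions lay close to both cuts. Inside the telomere-side bound lay 1002544 to 1003545 (score 0.422) and 1006952 to 1008444 (0.261), and outside it 994245 to 995825 (0.318) and 997718 to 999138 (0.251). Inside the centromere-side bound lay 22530995 to 22532050 (0.397) and 22539467 to 22540963 (0.274), and outside it 22543202 to 22545257 (0.509) and 22555956 to 22557489 (0.452). The 4 regions just inside overlapped neither replicate list, as did 44.4% of all combined regions. The 4 just outside overlapped replicate 2 only, as did 27.1% of all combined regions. Sides were set by midpoints, and the region starting at 22543202 crosses the bound. So few regions do not show a change at the bounds.

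Replicate 2 named more of the interior than replicate 1. Its regions covered 11.9% of the interior (2.56 Mb) and those of replicate 1 covered 6.61% (1.42 Mb), a mean of 9.25% ± 3.73 (SD, n = 2). The ratio of replicate 2 to replicate 1 was 1.80, or 0.85 on the log2 scale. The difference lay mostly in the number of regions, 63.2 per Mb in replicate 2 and 37.6 per Mb in replicate 1. Their median lengths were close, at 1655 bp in replicate 2 and 1620 bp in replicate 1. The upper quartile of length was somewhat higher in replicate 2, at 2034 bp against 1954 bp. The lists give no depth, and its part in the difference was not tested.

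Few members of the combined list were backed by both replicate lists. Overlap of at least 1 bp with both was found for 348 members, or 10.5% (95% Wilson interval 9.46 to 11.5), against 15.6% over all 21932 combined regions. Overlap with replicate 2 alone was found for 957 (28.8%, against 27.1% over all combined regions) and with replicate 1 alone for 415 (12.5%, against 12.8%). The other 1608 members, or 48.3% (95% Wilson interval 46.6 to 50.0), overlapped neither list, against 44.4% over all combined regions. The intervals cover counting error only, and neighbouring regions are not independent. The combined list is deposited for the set of these replicates, so the overlaps are no independent check of it. Of the 348 members that overlapped both lists, 17 had no base in common to both. In the median such member 68.0% of bases lay in replicate 1 regions, 77.5% in replicate 2 regions and 53.4% in both.

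The share backed by both lists followed length. Among the 832 shortest members (1001 to 1188 bp) 1 overlapped both lists and 718 overlapped neither. Among the 832 longest (1973 to 10547 bp) 282 (33.9%) overlapped both and 78 (9.38%) overlapped neither. The middle classes lay between, with 6 and 59 members in both lists and 524 and 288 in neither. The lists differ in their shortest region, and no replicate region anywhere was shorter than 1301 bp. Of the 1608 members in neither list, 993 (61.8%) were shorter than that, and of the 348 in both lists 2 were. A longer region also has more bases that can overlap a list. Among the 2137 members of at least 1301 bp, 16.2% overlapped both lists, a restriction chosen after the data were seen. Shares by length were not computed over all combined regions. These values therefore have no such background and cannot be set against the share for combined regions of any length.

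**Figure D1:**
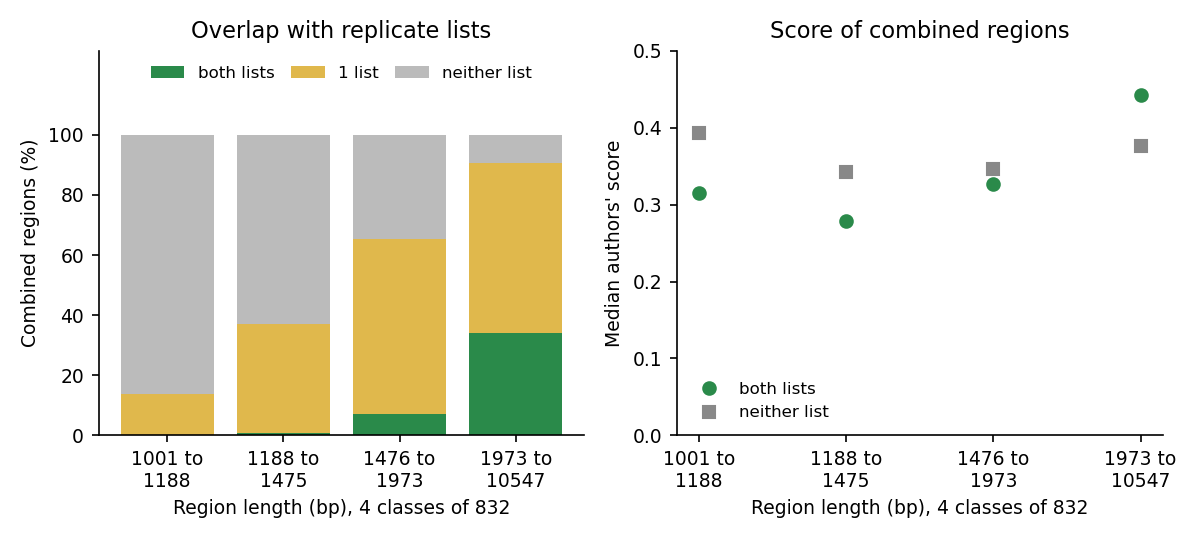
Members of the 3L interior in the combined list, split by length (bp) into 4 classes of 832. The left panel stacks the percentage of members overlapping both, 1 or neither replicate list, and the right panel gives the median authors' score of members in both lists (circles) and in neither list (squares). The share in both lists is 33.9% in the longest class and 0.120% in the shortest, and the circle lies above the square in the longest class only.

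The difference in score between these groups varied between length classes. Over all members the median score was 0.421 for those in both lists and 0.368 for those in neither, a difference of 0.0529. In the longest class the medians were 0.443 and 0.376, and the difference was 0.0669. In the 3 shorter classes it had the opposite sign, at −0.0189 (59 members in both lists), −0.0639 (6 members) and −0.0774 (1 member). The last 2 of these values rest on very few members in both lists. Averaged over the 4 classes with weights by the members in both lists, a choice made after the data were seen, the difference was 0.0497. Members in neither list had their highest class median, 0.393, among the shortest regions. These are differences between regions of 1 list and carry no test over libraries.

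Seen from the replicate lists, overlap was also partial. Of the 810 replicate 1 regions 350 (43.2%, Wilson interval 39.8 to 46.6) overlapped a replicate 2 region, against 53.5% over the whole replicate 1 list. Of the 1361 replicate 2 regions 354 (26.0%, 23.7 to 28.4) overlapped a replicate 1 region, against 37.5% over the whole replicate 2 list. In bases, 34.1% of the replicate 1 coverage lay in replicate 2 regions, and 19.0% of the replicate 2 coverage lay in replicate 1 regions. The Jaccard index, which divides the bases in both lists by the bases in at least 1 of them, was 0.139. Nearly all replicate regions overlapped the combined list by at least 1 bp. In bases, 87.0% of the replicate 1 coverage and 93.0% of the replicate 2 coverage lay in combined regions. Of the combined bases, 46.1% lay in neither replicate list. An overlap with the combined list was found for 755 of the 810 replicate 1 regions (93.2%, against 95.1% over the whole list). The same held for 1321 of the 1361 replicate 2 regions (97.1%, against 97.6%). The 55 and 40 that it missed had median lengths of 1372 and 1410 bp and scored at most 0.763 and 0.641.

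Replicate 1 and replicate 2 regions formed 369 overlapping pairs, with a median overlap of 1379 bp, which was 93.6% of the shorter region. Their midpoints lay a median of 379 bp apart, with an upper quartile of 989 bp. The pairs were chosen for overlapping, which by itself keeps midpoints close. In replicate 1 the 350 regions with a partner had a median score of 0.619, against 0.590 for all its members. In replicate 2 the median was 0.516 for the 354 regions with a partner and also for all its members. The scores were weakly related in rank (Spearman's rho 0.16 and Pearson's r 0.38 across 369 pairs). Without the 10 pairs with the highest replicate 1 scores, rho was 0.11 and r 0.18. The pairs are regions of the same 2 libraries and not replicates.

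**Figure D2:**
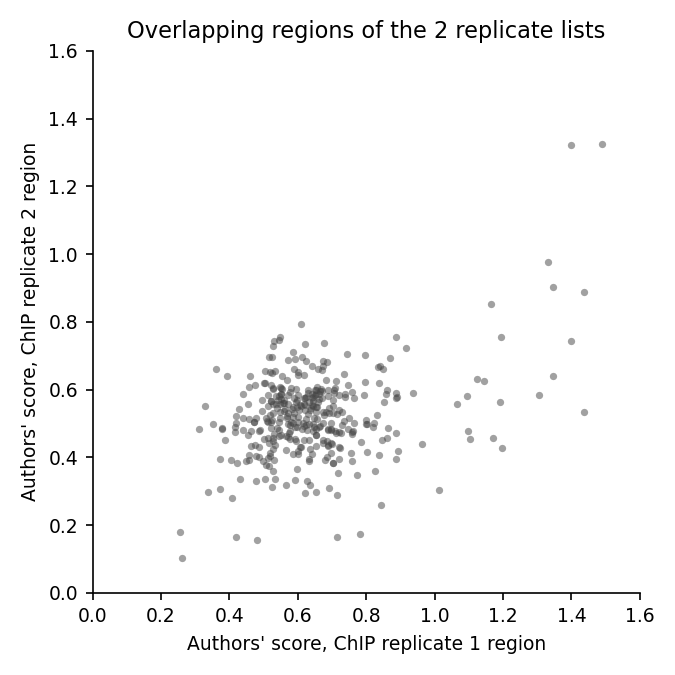
Authors' score of each of the 369 overlapping region pairs in the 3L interior, replicate 1 on the horizontal axis and replicate 2 on the vertical axis. Most pairs form 1 cloud with scores below 0.9 in both lists. The constant of each list's score is unknown, so the axes show order within a list and not a difference between lists.

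The bases called in both lists formed 369 stretches with a total of 0.486 Mb, 2.26% of the interior. Their median length was 1379 bp, 31 exceeded 2 kb and 8 exceeded 3 kb. The longest ran from 20470650 to 20477500 (6851 bp). A single region spanned it in each list, with scores of 1.33 in replicate 1, 0.976 in replicate 2 and 1.04 in the combined list. The second ran from 3192269 to 3197493 (5225 bp), with scores of 1.49, 1.32 and 1.32 in the same order. Its region ends differed by little between lists, from 3192196 to 3197493 in replicate 1, 3192269 to 3197723 in replicate 2 and 3192194 to 3197817 in the combined list. Its replicate 1 score was the highest of the interior in that list, and its replicate 2 score the second highest.

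The third stretch ran from 14087345 to 14091666 (4322 bp), with scores of 1.17 in replicate 1, 0.854 in replicate 2 and 0.885 in the combined list. The other two were neighbours. One ran from 9374261 to 9378562 (4302 bp) with scores of 1.40, 0.742 and 0.959, and the other from 9368756 to 9372368 (3613 bp) with scores of 1.35, 0.901 and 0.904. In all 5 stretches both replicate scores lay above the interior's median for their own list.

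None of the 5 longest members of the combined list was one of these sites. The longest member, 22469799 to 22480345 (10547 bp, score 0.443), lay close to the centromere-side bound. It overlapped 3 replicate 2 regions that covered 95.9% of it, with scores from 0.538 to 0.614, and the nearest replicate 1 region was 6781 bp away. The second, 1759147 to 1769279 (10133 bp, score 0.410), overlapped 2 replicate 2 regions and lay 2492 bp from the nearest replicate 1 region. The next 3 overlapped both lists. They ran from 1953649 to 1963128 (9480 bp), 20410608 to 20419362 (8755 bp) and 11969234 to 11976762 (7529 bp), with scores of 0.422, 0.429 and 0.432. Each of them overlapped 2 replicate 1 regions and 2 or 3 replicate 2 regions. Replicate 1 regions covered 42.7%, 19.1% and 46.7% of them in the same order, and replicate 2 regions 56.6%, 95.4% and 70.7%. How the combined list came to name 1 region at each of these places is not known.

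Of the 20 highest-scoring members 9 overlapped both lists, against 10.5% of all members. The highest-scoring member, 1424856 to 1425868 (1013 bp, score 2.19), overlapped neither, and the nearest regions were 648 bp away in replicate 1 and 1267 bp away in replicate 2. The second, 5106635 to 5108643 (2009 bp, 1.86), overlapped a replicate 2 region with a score of 2.09, the highest of that list in the interior, and lay 775 bp from the nearest replicate 1 region. The third was the site at 3192194 to 3197817 described above (1.32). The fourth, 5452834 to 5458066 (5233 bp, 1.28), overlapped 1 region of each list, with scores of 1.40 in replicate 1 and 1.32 in replicate 2. These regions covered 37.3% and 38.3% of it. The fifth, 6034755 to 6035865 (1111 bp, 1.24), again overlapped neither list.

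Of the same 20 members 8 (40.0%) overlapped neither list, against 48.3% of all members. After the first and the fifth above came 9436657 to 9438326 (1670 bp, score 1.19), 7674957 to 7676929 (1973 bp, 1.13) and, further down, 18508159 to 18509195 (1037 bp, 0.902). The last of these had no replicate 1 region within 12113 bp and no replicate 2 region within 23463 bp. All 5 carried a score shared by other regions of the combined list, 14 for the first and from 3 to 5 for the other 4. Shared scores were also found for members in a replicate list, with 18 other regions for the second-ranked member and 24 for the member at 5452834.

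In replicate 2 and in the combined list, coverage along the interior was highest at its 2 ends. Over 22 equal bins of 979 kb the combined list covered between 12.7% and 44.7%, with a median of 27.1%. The telomere-side bin was covered at 9.38% in replicate 1, 24.9% in replicate 2 and 44.7% in the combined list, and the centromere-side bin at 8.79%, 20.6% and 41.7%. In replicate 1 the bin at 16668042 to 17647294 reached 9.69% and that at 7854769 to 8834021 reached 9.62%. The lowest bin of replicate 2 and of the combined list, 17647295 to 18626547, was covered at 3.79%, 5.75% and 12.7%. Replicate 2 exceeded replicate 1 in all 22 bins, by a factor of 1.08 to 2.66, and the factor was largest in the telomere-side bin. Member scores changed little along the arm, with bin medians between 0.350 and 0.401. The share of members in both lists ran from 4.38% to 16.7% by bin and the share in neither from 39.7% to 61.9%.

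**Figure D3:**
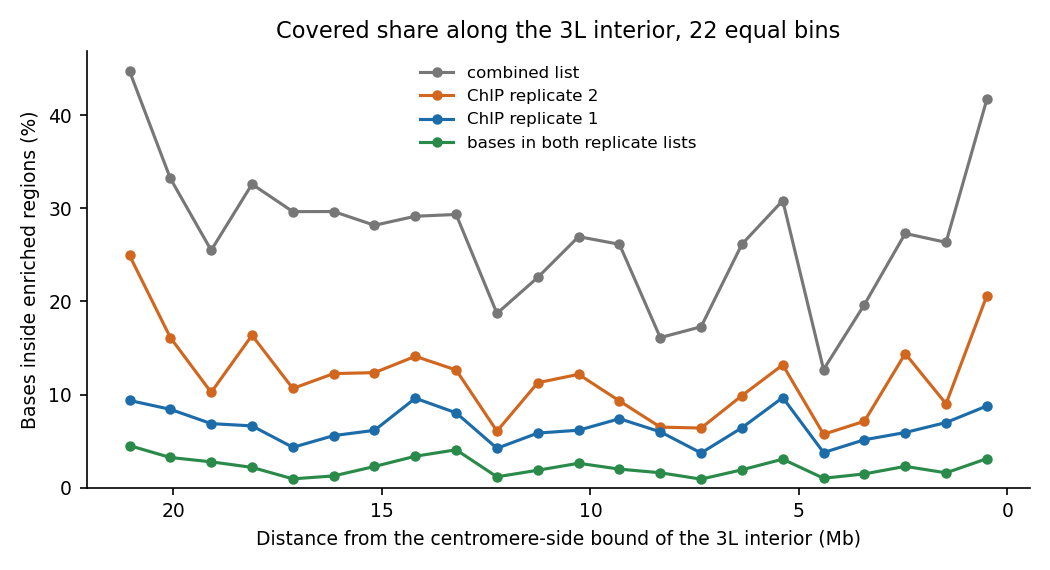
Share of bases inside enriched regions (%) in 22 equal bins of the 3L interior against distance from its centromere-side bound (Mb), telomere side at the left. Lines give the combined list, each ChIP replicate and the bases called in both replicates. The combined list and replicate 2 peak in the outermost and innermost bins, at 44.7% and 41.7% for the combined list, while replicate 1 stays between 3.74% and 9.69%.

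No rise towards the centromere was seen across the interior as a whole. The inner 50% was covered at 6.38% and the outer 50% at 6.84% in replicate 1. The same parts were covered at 10.4% and 13.4% in replicate 2, and at 24.7% and 29.4% in the combined list. The inner part minus the outer part was −1.71 percentage points on average over the replicates, with an SD of 1.77 between them, a difference smaller than that spread. The exact two-sided sign-flip permutation test over the 2 libraries gave p = 0.5, the smallest it can give.

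Windows of 100 kb showed where the 2 replicates met. Of 215 windows, 62 had no base in both lists, the median was 1.63% and the highest 13.1%. The richest, 9300001 to 9400000, holds the pair of neighbouring stretches. Replicate 1 regions covered 22.5% of it and replicate 2 regions 17.4%. It was followed by 7100001 to 7200000 (17.6% and 17.3%, with 10.2% in both), which holds none of the 5 longest stretches. The next were 20400001 to 20500000 (13.0% and 21.6%, 8.97% in both), 2500001 to 2600000 (16.7% and 12.5%, 7.95%) and 1200001 to 1300000 (13.3% and 33.8%, 7.72%). Over the 215 windows replicate 2 was higher in 170 and replicate 1 in 45. The covered shares of the 2 replicates were related across windows (Spearman's rho 0.52, Pearson's r 0.47). Windows of a list share its library and depth, so this is a description.

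Some stretches of the interior held few members. No window was empty in the combined list, but 3 adjoining windows from 18200001 to 18500000 were covered at 3.32%, 3.71% and 4.27%, and held 2, 3 and 3 members. The windows 14300001 to 14400000 (5.99%) and 11300001 to 11400000 (6.68%) came next. None of these 5 windows had a base in both replicate lists, as was so for 62 of all 215 windows. The 5 windows were picked for low combined coverage, so this is no separate result. The longest gap between neighbouring members, 18287593 to 18374691 (87099 bp), fell in the first 2 of them. The second gap ran from 15334971 to 15408634 (73664 bp), and the third from 14317908 to 14388046 (70139 bp). Replicate 1 had a region of its own inside the third gap, at 14362109 to 14363418 with a score of 0.639.

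Elsewhere members lay close together. The median gap was 2456 bp (quartiles 946 and 5934 bp), and 860 of 3327 gaps (25.8%) were under 1 kb, while 117 exceeded 20 kb. Joining members less than 1 kb apart gave 2468 groups, of which 1854 were single members and 18 held at least 5. The widest group, named after its values were seen, spanned 1746153 to 1769279 (23127 bp) and was 95.9% inside 4 members. Replicate 2 regions covered 76.2% of it and replicate 1 regions 18.0%. The groups with the most members, 8 each, lay near the centromere side at 21960406 to 21980820 and 22309557 to 22329714.

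Coverage of the 3L interior lay near the mean of the 2L, 3R and X interiors, cut at the same distances from their ends. It was above 2L and below 3R. In replicate 1 it was covered at 6.61%, against 6.14% on 2L, 7.75% on 3R and 5.93% on X. In replicate 2 it was covered at 11.9%, against 11.1% on 2L, 13.7% on 3R and 12.6% on X. In the combined list it was covered at 27.0%, against 25.4% on 2L, 32.1% on 3R and 25.9% on X. Minus the mean of the other 3 it was −0.296 percentage points on average, with an SD of 0.425 between replicates (exact two-sided sign-flip permutation p = 1). It was lower than 3R in both libraries, by −1.14 points in replicate 1 and −1.85 in replicate 2, and higher than 2L by 0.472 and 0.759. Both mean differences exceeded their SD between replicates. They were −1.50 with an SD of 0.506 for 3R and 0.616 with an SD of 0.203 for 2L. The exact sign-flip permutation test over 2 libraries gave p = 0.5 for each of these, its smallest value. The difference from X had opposite signs in the 2 libraries, 0.679 and −0.695. The share of members in both lists, 10.5%, stood beside 10.1% on 2L, 10.6% on 3R and 10.1% on X, each within the Wilson interval for 3L. The Jaccard index of the replicate lists, 0.139, stood beside 0.148 on 2L, 0.150 on 3R and 0.121 on X.

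Member scores were lower on 3L than on X in all 3 lists. The median member score was 0.590 on 3L and 0.694 on X in replicate 1, 0.516 and 0.614 in replicate 2, and 0.375 and 0.443 in the combined list. The difference, 3L minus X, was −0.101 over the replicates with an SD of 0.00353 between them (exact sign-flip permutation p = 0.5, the smallest possible). Against 2L the same difference was 0.00325 and against 3R −4.6e-05, so the median scores of the 3 autosomal interiors lay close together.

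The clearest contrast was with the base of the same arm, the innermost 2 Mb. The interior was covered at 6.61% and the base at 40.7% in replicate 1, and at 11.9% and 34.2% in replicate 2. The difference of −28.2 points on average exceeded its SD of 8.35 between the replicates (exact sign-flip permutation p = 0.5, the smallest possible). Bases in both lists made up 2.26% of the interior and 28.9% of the base, and the Jaccard index was 0.139 and 0.627. Of the combined regions, 10.5% overlapped both lists in the interior and 45.6% in the base. Their median length was 1476 bp in the interior and 2324 bp in the base. Longer regions and a larger covered share leave more room for overlap, and their part in these differences was not tested. Replicate 2 covered more than replicate 1 in the interior (ratio 1.80) and less in the base (0.840). Median region scores were lower in the interior than in the base, at 0.590 and 1.07 in replicate 1 and 0.516 and 0.669 in replicate 2.

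**Figure D4:**
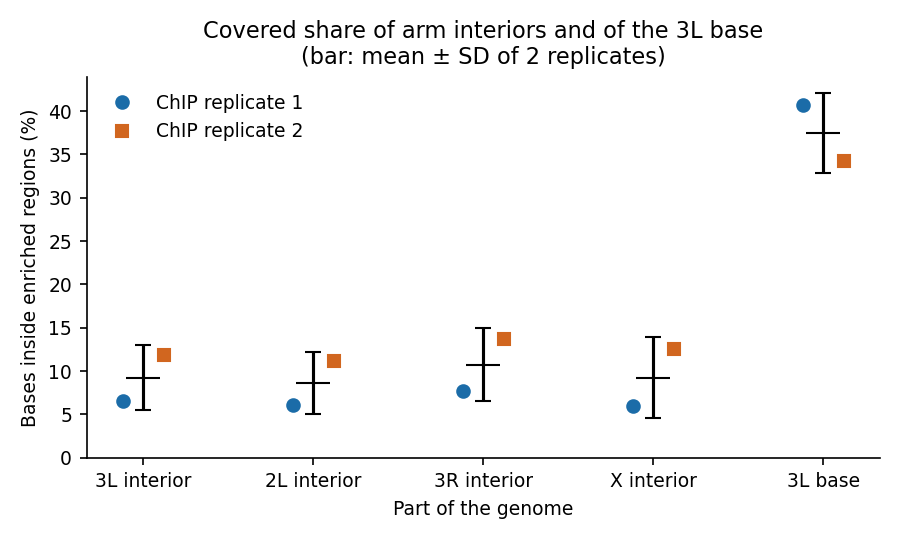
Share of bases inside enriched regions (%) for the 3L interior, the 2L, 3R and X interiors and the 3L base, with 1 point for each ChIP replicate and bars for mean ± SD of 2 replicates. The 4 interiors lie between 5.93% and 13.7%, with replicate 2 above replicate 1, and the 3L base lies at 34.2% and 40.7% with the order of the replicates turned round.

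The change at the centromere-side bound was larger in replicate 1 than in replicate 2 or the combined list, a difference that was not tested. In the last 1 Mb inside the bound replicate 1 regions covered 8.76%, against 30.4% in the first 1 Mb outside it. Replicate 2 regions covered 20.3% inside and 29.1% outside, and combined regions 41.4% and 47.9%. Bases in both replicate lists covered 3.07% inside and 20.8% outside. At the telomere-side bound the order was the opposite. There combined regions covered 44.6% inside and 30.0% outside, replicate 1 regions 9.36% and 6.99%, and replicate 2 regions 24.6% and 15.7%.

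The combined list named 5 depleted regions in all, and 2 of them lay inside the bounds of the interior but outside the rule. Both lay wholly inside an enriched region of replicate 1. The depleted region at 4552820 to 4554510 (score −0.0397) lay in the replicate 1 region 4552582 to 4554591, which scored 0.708. The one at 9497481 to 9499243 (score −0.00213) lay in the replicate 1 region 9497399 to 9499312, which scored 0.399. Replicate 2 had no region at either place, the nearest being 1841 bp and 13755 bp away. The calls of the combined list and of replicate 1 thus have opposite directions at these 2 places.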

How the data were processed

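ChIP-seq region lists of 2 ChIP libraries and of the replicate set were analysed. Per the file headers, the coordinates are those of FlyBase release 5, and column 2 of the lists calls the regions significantly enriched. Each has a score from the authors. The submitters' processing notes name Bowtie version 0.12.7. For the caller, its threshold, the use of input and the combining of replicates, details are not given in the sources used. Nothing says whether the replicates came from separate larvae, so their spread may be technical, and read depth is unknown.

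Groups follow the sample titles. Covered share is the percentage of bases inside enriched regions, and overlap means at least 1 bp. With 2 libraries, differences were set against the SD between replicates and an exact sign-flip permutation, whose smallest p is 0.5. Regions were named by fixed ranks of length, score, windows of 100 kb and gaps. The members, the named-region rule and the comparisons were chosen with earlier results of these data known. Interval code was checked on 20 simulated pairs of lists and matched a base-by-base count in 20. Genes and sequence were not used here, because coordinates of the available gene table are on release 6. Scripts ran in Python 3.11.15 with pandas 2.3.3, NumPy 2.4.6 and SciPy 1.17.1.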

Additional observations from a re-analysis of the deposited data

How the results depend on the processing

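Of 45 alternatives over 7 results, 22 kept the direction or stayed within the spread, 21 moved the value and 2 turned its direction. Some of these outcomes were fixed by their rule. For the covered share, leaving out 1 of 2 replicates always stays within the SD between them. Regions per Mb counted as moved because the unit differs. For the score difference and the log2 ratio, a small relative change was enough to count as moved. For the Jaccard index, the limits came from a Wilson interval that treats single bases as independent. Values of 0.1392 and 0.1397 therefore counted as moved from 0.1389. Sign-flip tests over 2 libraries cannot pass a threshold and say nothing about stability. The covered share of the interior, 9.25% as reported, was 3.52% with the top 50% by score and 4.79% with the longest 50%. The combined list gave 27.0%, and counting regions per Mb gave 50.4. The covered share was 6.61% without replicate 2 and 11.9% without replicate 1. The difference from the mean of the 2L, 3R and X interiors was −0.596 without replicate 1 and 0.00446 without replicate 2, which turned its sign. Under the other alternatives it lay between −1.03 (top 50% by score) and −0.237 (longest 50%). The value for the inner minus the outer part stayed negative, from −2.97 to −0.462 with a replicate left out. With the longest 50% it was −1.15 as a mean, with 0.0168 in replicate 1 and −2.31 in replicate 2. For the share of members in both lists the top 50% by score gave 4.00% and the longest 50% gave 6.59%. Both cuts were made in the combined list and in each replicate list, at the list's own median. They therefore also removed replicate regions that members could overlap, and do not show how often long or high-scoring members were backed. The share was 6.91% with overlap of 50% of both regions and 16.2% for members of at least 1301 bp. The Jaccard index was 0.0695 for the top 50% by score, 0.0912 for the longest 50%, 0.139 with bounds moved in by 1 Mb and 0.140 with merging under 1 kb. The score difference between members in both lists and in neither was −0.0233 as an unweighted mean within 4 length classes, where classes with 1 and 6 members in both lists count as much as that with 282, and 0.0497 when weighted by members in both lists. It was 0.0535 with moved bounds, 0.0517 with stricter overlap, 0.0756 for members of at least 1301 bp and 0.112 for members whose score no other region has. The log2 ratio of replicate 2 to replicate 1 reached 1.35 for the top 50% by score and 1.20 for the longest 50%, and was 0.87 with merging and 0.77 with moved bounds. The causes of these changes were not tested. The weighted mean, the restriction to 1301 bp and that to scores no other region has were chosen after seeing the data. No paired analysis was possible because the input libraries have no list among those analysed.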
